A study of Drosophila melanogaster with 4 samples.

Results

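The basement membrane that wraps each Drosophila egg chamber was followed here through 10 genes that encode its main components, chosen by symbol: the collagen IV chains vkg and Col4a1, the laminin chains LanA, LanB1 and LanB2, the perlecan gene trol, the nidogen gene Ndg, and SPARC, Ppn and Pxn. All 10 were found among the 17440 genes or joint loci of the tables, tied to them by the coordinates of their transcripts, and the transcript with the highest mean count stood for each gene. The measurements were ribosome footprint counts from dissected ovaries, 4 libraries in all, 2 of wildtype and 2 of RpS5b mutant ovaries. Footprints are the short RNA fragments that ribosomes shield from nuclease, so a count reflects both how much of an mRNA is present and how densely ribosomes sit on it. Both groups were young adults, 48 hours after emergence, and per the labels the egg chambers of stages 10 to 14 had been taken out of the control ovaries, though the chorion genes of late egg chambers had higher footprint levels in the wildtype than in the mutant libraries. The labels give the genotypes as wildtype and RpS5b mutant, with no allele, strain or number of animals per library. RpS5b encodes a version of ribosomal protein S5, a part of the small ribosomal subunit, and has a paralog in RpS5a.

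A basement membrane is a thin sheet of secreted protein beneath an epithelium. In the fly ovary the somatic follicle cells secrete most of it around the growing germline cyst: laminin trimers form a first network, collagen IV trimers form a second one that gives the sheet its stiffness, and perlecan, a large heparan sulfate proteoglycan, and nidogen bind to both. The sheet holds the egg chamber in shape while it rotates and elongates, and the follicle cells grip it through integrins and dystroglycan.

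Library totals lay between 3122299 and 13942184 reads, and protein-coding genes held between 1053826 and 4601812 counts, with the lower totals in the wildtype group. RpS5b itself had 287 and 342 counts in wildtype and 10 and 9 in mutant libraries. Levels are given as CPM, counts scaled to library size with TMM factors, when 1 gene is compared between libraries, and as the deposited RPKM, counts scaled to transcript length and library total, when genes are compared with each other. Differences were tested gene by gene over 7787 genes (edgeR, quasi-likelihood test) and called at a Benjamini-Hochberg adjusted p under 0.05. Whether replicate libraries stem from separate dissections is not stated in the labels, so the p-values reflect the spread between libraries alone, and that spread may be technical.

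Footprints on collagen IV, laminin and perlecan mRNAs were about doubled in the mutant ovaries, while those on SPARC, papilin and peroxidasin mRNAs did not pass the test and nidogen had almost none in either group. Of the 9 basement membrane genes with enough counts to be tested, 6 were higher in the mutant and 0 lower, where 20.5% of all genes tested were called higher, 20.9% lower and 41.4% in either direction. The 6 were both collagen IV chains, the 3 laminin chains and trol, with log2 fold changes between 0.97 and 1.31. The median over the 9 genes was 1.10, against 0.031 over all genes tested. At least a doubling was called for 5 of the 9 genes, against 8.22% of all genes, and both mutant libraries lay above both wildtype libraries for 7, against 37.6%. Over all genes tested 1596 were higher, and 1035 without wildtype replicate 2. Each of the 6 basement membrane calls was kept in all 13 alternative settings run, with log2 fold changes between 0.89 and 1.37. Ndg was the 1 member that did not pass the filter on low counts.

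**Figure D1:**
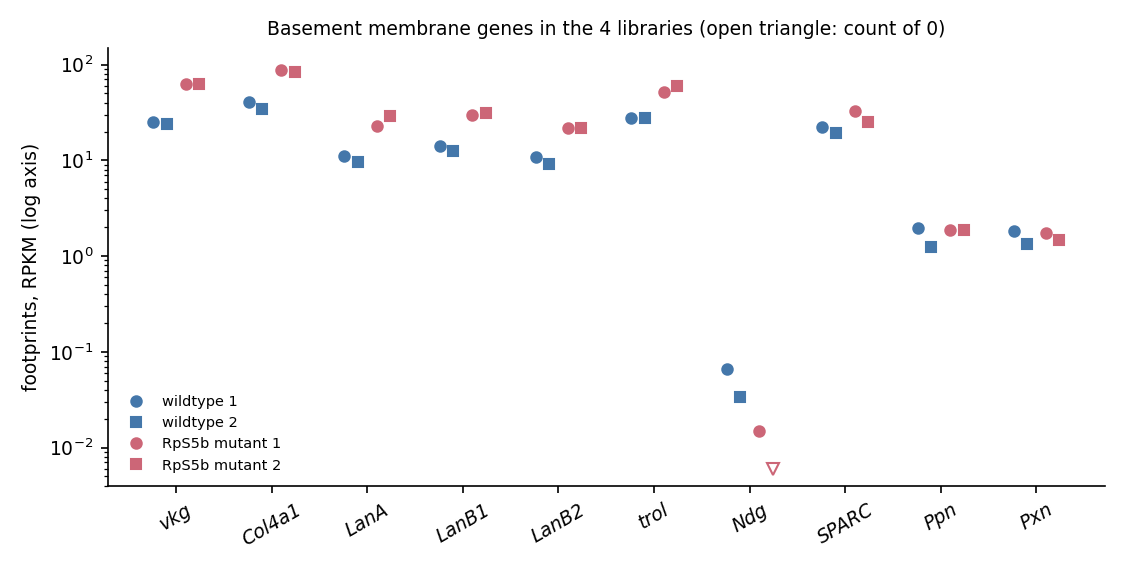
Footprint level of each basement membrane gene in each library, as deposited RPKM on a log axis; circles and squares are the libraries numbered 1 and 2, blue wildtype and red mutant, and an open triangle marks a count of 0. For vkg, Col4a1, the laminin genes and trol both mutant points lie above both wildtype points, for Ppn and Pxn the groups overlap, and Ndg lies far below the rest.

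Collagen IV is a trimer of chains encoded by Col4a1 and by vkg (viking). The genes lie next to each other on chromosome 2L of build BDGP6 and point away from one another: the counted vkg transcript spans 5012144 to 5027445 on the minus strand and that of Col4a1 5029609 to 5037114 on the plus strand. Between the outermost annotated ends of the pair lie 1417 nt.

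The level of vkg was 162.7 and 176.6 CPM in wildtype and 433.1 and 406.1 CPM in mutant libraries. Both mutant libraries were more than double both wildtype libraries. This was a 2.47-fold difference (95% interval 1.91 to 3.20), 1.31 on the log2 scale (SE 0.16, edgeR adjusted p = 0.000849). Col4a1 stood at 244.8 and 236.1 CPM in wildtype and at 570.1 and 500.5 CPM in mutant libraries. The groups were again well apart, by 2.23-fold (95% interval 1.70 to 2.92), 1.16 on the log2 scale (SE 0.17, edgeR adjusted p = 0.00168). In every library Col4a1 had more footprints per length than vkg.

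Laminin is a trimer of an alpha, a beta and a gamma chain. LanA encodes an alpha chain, on chromosome 3L from 6203831 to 6218022 on the minus strand. LanB1 encodes the beta chain, on 2L from 7811438 to 7820771, and LanB2 the gamma chain, on 3L from 9614914 to 9623980, both on the plus strand. The level of LanA was 131.6 and 128.7 CPM in wildtype and 288.7 and 340.7 CPM in mutant libraries, a 2.42-fold difference (95% interval 1.86 to 3.15), 1.27 on the log2 scale (SE 0.16, edgeR adjusted p = 0.000999). LanB1 stood at 88.9 and 88.3 CPM against 201.2 and 193.5 CPM, 1.16 on the log2 scale (SE 0.14, edgeR adjusted p = 0.000874). LanB2 stood at 62.7 and 60.1 CPM against 136.2 and 126.0 CPM, 1.10 on the log2 scale (SE 0.14, edgeR adjusted p = 0.000960). The wildtype libraries were close to each other for all 3 chains, and both mutant libraries were above them.

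Perlecan is encoded by trol (terribly reduced optic lobes), whose counted transcript covers chromosome X from 2470460 to 2545410 on the minus strand. With the longest counted transcript of the 10 genes, 14164 nt, it also had the most counts, with 1214 and 2391 in wildtype and 10198 and 7350 in mutant libraries. In CPM this was 392.6 and 440.7 against 792.7 and 843.1. The groups did not overlap, and the difference was 1.96-fold (95% interval 1.47 to 2.62), 0.97 on the log2 scale (SE 0.18, edgeR adjusted p = 0.00435). A microRNA, mir-4955, overlaps 23 nt of the counted transcript on the same strand, and no exon of another gene overlaps those of the collagen IV or laminin genes.

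Nidogen, a linker between the laminin and collagen IV networks, is encoded by Ndg on chromosome 2R. It had 1 count in each wildtype library, 1 in mutant library 1 and 0 in mutant library 2, so it was not tested and no fold change is given. The count of 0 allows a level of up to 0.344 CPM in that library, counting error only.

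SPARC, Ppn and Pxn also encode secreted proteins. SPARC is a collagen IV-binding glycoprotein, counted on 3R from 26869238 to 26871995 on the minus strand. Its level was 25.6 and 25.1 CPM in wildtype and 40.3 and 29.0 CPM in mutant libraries. Both mutant values were the higher ones, but they lay farther apart than the wildtype values, and the log2 fold change of 0.46 (SE 0.18, 95% interval 0.033 to 0.89) did not pass after adjustment (edgeR adjusted p = 0.0798). Without mutant replicate 2 it was 0.68 and passed (edgeR adjusted p = 0.00768), and without mutant replicate 1 it was 0.17 (edgeR adjusted p = 0.520).

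Papilin, an ADAMTS-like matrix protein encoded by Ppn on 3R (28520665 to 28540324, minus strand), stood at 19.1 and 13.5 CPM in wildtype and 19.6 and 17.9 CPM in mutant libraries. The groups overlapped, with a log2 fold change of 0.25 (SE 0.18, 95% interval -0.16 to 0.67, edgeR adjusted p = 0.293). Pxn encodes peroxidasin, an enzyme that crosslinks collagen IV, on 3L from 2601455 to 2630064 on the minus strand. Its level was 9.70 and 7.93 CPM against 9.79 and 7.57 CPM, so the wildtype values lay between the mutant values. The log2 fold change was 0.018 (SE 0.24), with a 95% interval of -0.53 to 0.57, and the edgeR adjusted p was 0.960. The lncRNA CR45660 overlaps 151 nt of the counted Pxn transcript on the same strand, and their reads could be shared.

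**Figure D2:**
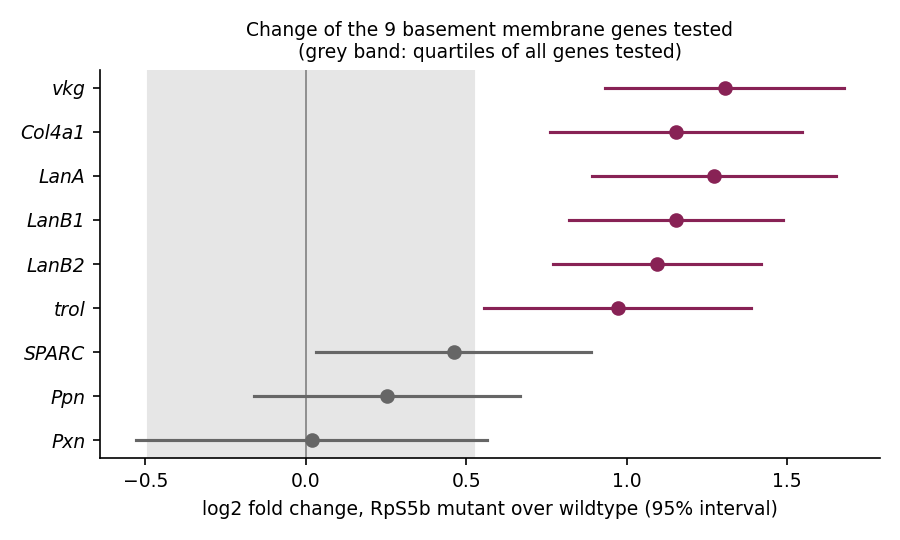
Log2 fold change, mutant over wildtype, of the 9 basement membrane genes tested, with 95% intervals from the edgeR fit; dark purple marks genes with an adjusted p under 0.05 and the grey band spans the quartiles, -0.49 and 0.53, of all genes tested. The 6 collagen IV, laminin and perlecan genes lie between 0.97 and 1.31, and SPARC, Ppn and Pxn have wider or lower intervals near the band.

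Per length, the order of the genes was read from the deposited RPKM. In the wildtype libraries Col4a1 was highest at 37.5 ± 4.11 RPKM (SD, n = 2), followed by trol at 27.4 ± 0.067, vkg at 24.6 ± 0.64, SPARC at 20.7 ± 2.02 and LanB1 at 13.3 ± 1.19. LanA at 10.4 ± 1.04 and LanB2 at 9.98 ± 1.14 overlapped, as did Ppn at 1.61 ± 0.52 and Pxn at 1.60 ± 0.36, while the other neighbours in this order did not. In the mutant libraries Col4a1 stood at 85.6 ± 2.99 RPKM, vkg at 62.7 ± 0.72 and trol at 55.6 ± 5.59 (SD, n = 2 each), so vkg and trol changed places. LanB1 at 30.4 ± 0.89 and SPARC at 29.0 ± 5.02 overlapped, SPARC also overlapped LanA at 26.0 ± 4.50, and LanB2 was lower at 21.8 ± 0.041. Ppn at 1.89 ± 0.013 and Pxn at 1.60 ± 0.20 RPKM came far below them and did not overlap each other in the mutant. SPARC lay above all laminin chains in both wildtype libraries and in mutant library 1, and below LanB1 and LanA in mutant library 2. Whole transcripts with their untranslated ends are the basis of these lengths, so a gene with long untranslated ends has a lower value than its coding part.

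Whether collagen IV, laminin and perlecan moved together was asked with ratios within a library, which do not depend on how libraries are scaled. Summed counts per kilobase of the collagen IV chains over those of the laminin chains gave 1.82 and 1.88 in wildtype and 2.01 and 1.79 in mutant libraries. The groups overlapped, and the mean log2 ratio differed by 0.039 with a pooled SD of 0.09. Perlecan over laminin was 0.761 and 0.874 in wildtype and 0.694 and 0.726 in mutant libraries, a log2 difference of -0.20 with a pooled SD of 0.10. Collagen IV over perlecan was 2.38 and 2.15 against 2.90 and 2.46, a log2 difference of 0.24 with a pooled SD of 0.14. These last ratios did not overlap between the groups, with perlecan relatively lower in the mutant, but the exact two-sided permutation p of each was 0.333, the smallest that 2 libraries against 2 can give. For collagen IV over laminin the exact p was 1. Over the 9 ratios computed between components the lowest Benjamini-Hochberg adjusted value of the exact permutation p was 0.428, so none passed.

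Within the trimers, 3 ratios between chains were computed. The ratio of vkg to Col4a1 was 0.620 and 0.698 in wildtype and 0.709 and 0.757 in mutant libraries, a log2 difference of 0.16 with a pooled SD of 0.098 (exact permutation p = 0.333). LanA over LanB1 was 0.789 and 0.777 against 0.765 and 0.939, with overlapping groups. LanB2 over LanB1 was 0.763 and 0.736 against 0.732 and 0.704, a log2 difference of -0.062.

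Relative to collagen IV, SPARC and Pxn had lower footprint levels in both mutant libraries, as did Ppn relative to laminin. These ratios restate the levels above, since the collagen IV and laminin genes were called higher and SPARC, Pxn and Ppn were not. A gene at the median log2 fold change of all genes tested, 0.031, would also have a lower ratio. SPARC over collagen IV was 0.338 and 0.328 in wildtype and 0.217 and 0.173 in mutant libraries, a log2 difference of -0.78 with a pooled SD of 0.16. Pxn over collagen IV was 0.0282 and 0.0228 against 0.0116 and 0.00994, a log2 difference of -1.24 with a pooled SD of 0.19. Ppn over laminin was 0.0549 and 0.0396 against 0.0255 and 0.0229, a log2 difference of -0.95 with a pooled SD of 0.25. None of the 3 ratios overlapped between the groups, and each had an exact permutation p of 0.333, the smallest possible here.

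**Figure D3:**
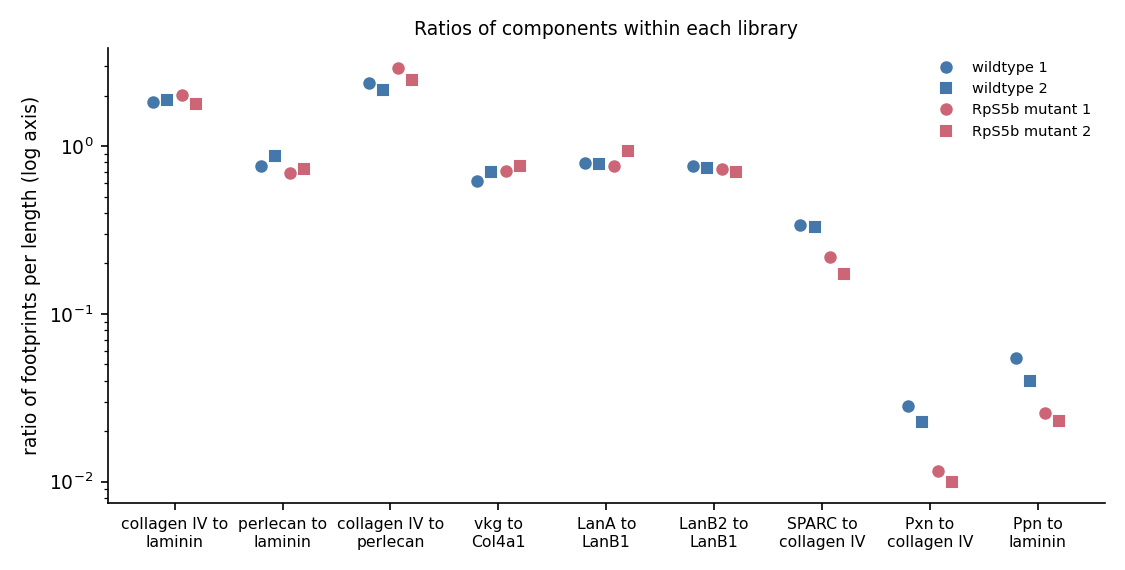
Ratios of summed footprint counts per kilobase between components, within each library, on a log axis; circles and squares are the libraries numbered 1 and 2, blue wildtype and red mutant. The mean ratios among collagen IV, laminin and perlecan differ by at most 0.24 on the log2 scale between the groups. Those of SPARC, Pxn and Ppn to the networks are lower in both mutant libraries, where the networks themselves were higher.

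The perlecan gene has 22 annotated transcripts that differ by alternative exons, and the tables hold a count for each of them. Their split by exon was added after the tables had been seen. Since a read has 1 position, a transcript's count is the sum over its exon segments, and differences between overlapping transcripts give the counts of single segments. The 22 trol transcripts yielded 12 segments outside a base transcript of 12046 nt, and every one has a length that is a multiple of 3. Footprint density in a segment is given as a percentage of the density in that base transcript in the same library, so 100% means as many footprints per nucleotide as the rest of the gene.

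Perlecan's alternative segments ranged from as dense as the rest of the gene to empty. The 468 nt segment from 2499211 to 2499678 on chromosome X had 79.7% and 69.8% of the base density in wildtype and 102% and 80.2% in mutant libraries. The 234 nt segment from 2494404 to 2494637 had 48.7% and 38.3% against 74.1% and 69.1%, from 11 and 17 counts in wildtype and 137 and 93 in mutant libraries. By contrast, a 219 nt segment in 2 pieces between 2495948 and 2496593 had 0 counts in all 4 libraries, and a 321 nt segment in 2 pieces between 2496776 and 2497488 had 1 count, in mutant library 2. For the 219 nt segment the 0 counts allow up to 14.2% of the base density in wildtype library 1 and 1.73% in mutant library 1, counting error only.

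Other segments carried few footprints in the wildtype and more in the mutant. The 117 nt segment from 2495612 to 2495728 had 1 and 2 counts in wildtype and 38 and 23 in mutant libraries, or 8.86% and 9.00% of the base density against 41.1% and 34.2%. As a share of segment and base counts these were 0.086% (Wilson 95% interval 0.0152 to 0.485) and 0.0874% (0.024 to 0.318) against 0.398% (0.29 to 0.545) and 0.331% (0.22 to 0.496), so the intervals of the groups overlapped. The 186 nt segment from 2486057 to 2486242 had 0 and 6 counts against 54 and 40, or 0% and 17% of the base density against 36.7% and 37.4%, where the count of 0 allows up to 16.7%. The 243 nt segment in 2 pieces between 2498022 and 2498631 had 4.27% and 15.2% against 34.4% and 25.7%. In all 3 segments both mutant libraries were above both wildtype libraries.

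Of the 7 trol segments with at least 20 counts over the libraries, 6 took a larger share in both mutant libraries, the 198 nt segment from 2495041 to 2495238 (15.7% and 16% of the base density against 22.4% and 22.8%) among them. The exception was a 249 nt segment in 2 pieces between 2500237 and 2501241, with 4.16% and 12.7% against 4.57% and 4.19%. Over 478 such alternative segments in 420 coding genes, 31.4% took a larger share in both mutant libraries and 16.7% a smaller one. The minimum of 20 counts sums the 4 libraries, which favours segments high in the deeper mutant libraries. The 117, 186, 198 and 243 nt segments had 3, 6, 9 and 8 counts in wildtype against 61, 94, 61 and 102 in mutant libraries. They passed the minimum through the mutant, so the 6 of 7 is a description and not a test. Together the 12 segments of trol made up 4.36% and 4.47% of segment and base counts in wildtype and 7.08% and 6.02% in mutant libraries. The mutant mean was 1.48 times the wildtype mean, with an exact two-sided permutation p of 0.333, the smallest this design can give. The same solution for Ppn gave 25.4% and 43.8% in wildtype and 28.2% and 29.5% in mutant libraries, with overlapping groups.

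**Figure D4:**
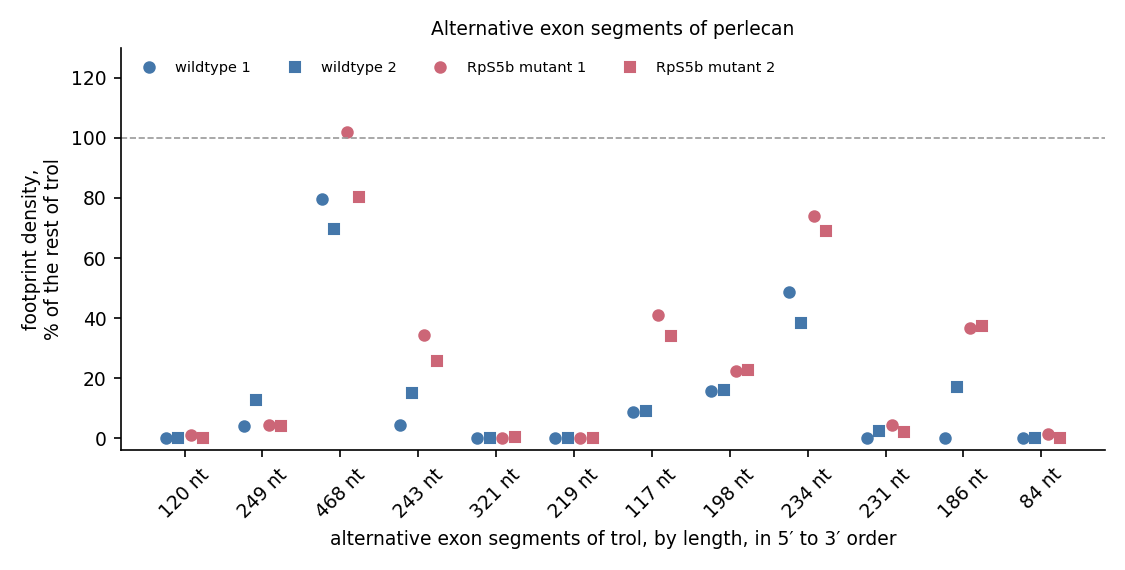
Footprint density in each of the 12 alternative segments of trol, in percent of the density in the base transcript of the same library (dashed line, 100%), labelled by length and ordered from the 5′ to the 3′ end; circles and squares are the libraries numbered 1 and 2, blue wildtype and red mutant. Only the 468 nt segment is dense in both groups, at 69.8% or more in each library. For the 234 nt segment the mutant libraries reach 74.1% and 69.1%, against wildtype values of 48.7% and 38.3%. Wildtype values of the 243, 117 and 186 nt segments are low, at most 17%, while their mutant values lie between 25.7% and 41.1%.

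Genes of other secreted or surface-bound matrix proteins were also followed. Of 8 tested of 10 listed, 5 were higher and 0 lower, with a median log2 fold change of 0.93, where 20.5% of all genes were higher. The fasciclin-domain protein gene mfas stood at 90.9 and 90.7 CPM in wildtype and 269.6 and 265.0 CPM in mutant libraries, 1.56 on the log2 scale (SE 0.15, edgeR adjusted p = 0.000309). Syndecan, a heparan sulfate proteoglycan of the cell surface encoded by Sdc, stood at 72.1 and 59.2 against 140.7 and 128.9 CPM, a log2 fold change of 1.04 (SE 0.16). The naming rule took up to 2 genes per direction from a list, and here and for the lists that follow any further gene was named after its values were seen. These were wb, the gene of the second laminin alpha chain, at 1.77 (SE 0.23), the collagen XV/XVIII gene Mp at 1.01 (SE 0.23) and the glypican gene dally at 0.85 (SE 0.13). The level of wb rose 3.41-fold, from 4.85 and 3.50 CPM, to 13.8 ± 0.74 CPM in the mutant (SD, n = 2). Mp lost its call with the DESeq2 test and after thinning of the libraries.

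All 16 listed genes of collagen modification and secretion were tested, 6 were higher and 1 lower, and the median log2 fold change was 0.32. Over all genes tested 20.5% were higher and 41.4% called in either direction, a share near that of this list. The prolyl 4-hydroxylase gene PH4alphaEFB, whose enzyme hydroxylates collagen chains, stood at 14.9 and 16.2 CPM in wildtype and 58.3 and 48.3 CPM in mutant libraries, 1.77 on the log2 scale (SE 0.16, edgeR adjusted p = 0.000248). The lysyl hydroxylase gene Plod was at 0.25 (edgeR adjusted p = 0.211) and Tango1, a cargo receptor for collagen at endoplasmic reticulum exit sites, at 0.036 (edgeR adjusted p = 0.871), neither of which passed. Rab8 and Rab10, small GTPases of secretory traffic, were at 0.81 (SE 0.15) and 0.80 (SE 0.27). The call of Rab10 was lost with the DESeq2 test (DESeq2 adjusted p = 0.103), RLE size factors, coding genes only for scaling or a filter of at least 10 CPM. It was also lost without wildtype replicate 1, where the log2 fold change was 0.42. The gene that fell was Sec13, a coat subunit of the vesicles that leave the endoplasmic reticulum and also of the nuclear pore, at -0.88 (SE 0.18). By the DESeq2 test 3 genes of the list were higher.

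Integrins are the cells' receptors for the basement membrane and are linked to actin by adaptor proteins. Of 18 tested of 19 genes of these receptors and linkers, 5 were higher and 2 lower, with a median of 0.11, near the background of 20.5% higher and 41.4% in either direction over all genes. The 5 were the integrin alpha genes scb at 1.48 (SE 0.14), ItgaPS4 at 1.43 (SE 0.37) and mew at 0.71 (SE 0.15), the integrin beta gene mys at 0.73 (SE 0.13) and the adaptor gene Pax, paxillin, at 0.90 (SE 0.15). The gene scb, which encodes the alpha-PS3 chain, stood at 41.7 and 43.5 CPM in wildtype and 119.9 and 118.8 CPM in mutant libraries. Talin, encoded by rhea, at 0.032 and the dystroglycan gene Dg at 0.28 did not pass. The 2 lower genes were the dystrophin gene Dys at -0.44, whose call was lost without any 1 of the 4 libraries, and the kindlin gene Fit2 at -1.93, lost without wildtype replicate 1, when 0 genes of the list were lower. The calls of mew and ItgaPS4 were lost without wildtype replicate 2 and wildtype replicate 1 respectively, and that of ItgaPS4 also with the DESeq2 test. Fit2 also lost its call with thinned libraries, and Dys with the DESeq2 test or scaling by total counts.

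Of 5 tested of 8 genes of matrix remodelling, 3 were higher and 0 lower, with a median of 0.78, where 20.5% of all genes were higher. The ADAMTS-family protease gene stl (stall) stood at 8.08 and 7.74 CPM in wildtype and 28.9 and 27.8 CPM in mutant libraries, 1.85 on the log2 scale (SE 0.15, edgeR adjusted p = 0.000148). The matrix metalloproteinase gene Mmp2 was at 0.78 (SE 0.17, edgeR adjusted p = 0.00788), and Mmp1 at 1.03 did not pass (edgeR adjusted p = 0.0568). AdamTS-A, at 0.47, lost its call without wildtype replicate 2, mutant replicate 1 or mutant replicate 2. It also did so with the DESeq2 test (DESeq2 adjusted p = 0.338), RLE size factors or scaling by total counts.

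Of 10 genes of egg chamber rotation 5 were higher and 0 lower, with a median of 0.34, where 20.5% of all genes were higher and 41.4% called in either direction. The semaphorin gene Sema5c was at 1.09 (SE 0.15) and Hem, a subunit of the WAVE complex that drives follicle cell protrusions, at 0.75 (SE 0.13), followed by ena at 0.76, the Fat2 cadherin gene kug at 0.56 and SCAR at 0.46. Of the list 3 genes were higher with DESeq2 and also without wildtype replicate 1 or wildtype replicate 2, with kug and SCAR losing their calls each time, and kug also did so without mutant replicate 2 and SCAR without mutant replicate 1. The receptor phosphatase gene Lar at 0.15 did not pass. Among 9 tested of 12 matched genes of heparan sulfate synthesis and trimming, the sugar chains carried by perlecan, 3 were higher and 0 lower, with a median of 0.40, a called share below the 41.4% of all genes. These were botv, oxt and Sulf1, all under 10 CPM, and 1 gene was higher without wildtype replicate 1 and 0 without wildtype replicate 2 or mutant replicate 1.

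**Figure D5:**
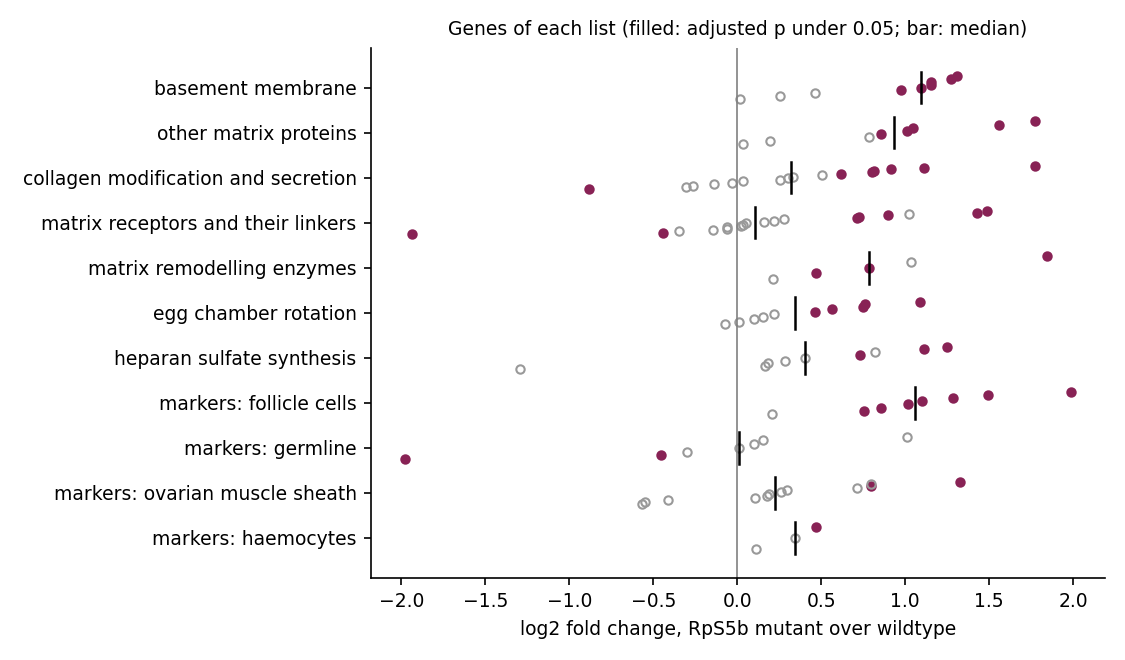
Log2 fold change, mutant over wildtype, of the tested genes of the basement membrane list, the other matrix and adhesion lists and the follicle cell, germline, muscle and haemocyte markers. Filled points have an adjusted p under 0.05 in the edgeR test and the bar is the list's median. The vitelline membrane, chorion and fat body markers are not drawn. The basement membrane genes and the follicle cell markers have medians of 1.10 and 1.06, and the germline, muscle and haemocyte markers have medians of 0.0095, 0.22 and 0.34.

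Follicle cell markers and several vitelline membrane genes moved with the basement membrane genes. Of 8 follicle cell markers 7 were higher and 0 lower, with a median log2 fold change of 1.06. Over all genes tested 20.5% were higher, 20.9% lower and 41.4% called in either direction. The summed level of the follicle cell markers was 186.9 and 183.0 CPM in wildtype and 368.4 and 356.3 CPM in mutant libraries. Of 8 vitelline membrane genes, which follicle cells of mid-stage egg chambers express, 4 were higher (ndl at 1.47, psd at 1.19, Vm34Ca at 1.15 and Vm26Ab at 0.97) and 1 lower (Fcp3C at -1.68), with a median of 0.69. Their summed level was 2902 and 2001 CPM in wildtype and 4295 and 4190 CPM in mutant libraries. Of 7 tested of 8 germline markers 0 were higher and 2 lower (osk at -1.98 and nanos at -0.46). The markers vas at 0.0095, orb at 0.10, bam at 0.15 and otu at -0.30 did not pass. Nor did grk at 1.01 (edgeR adjusted p = 0.113), though both mutant libraries were above both wildtype libraries for it. The summed counts of the 6 collagen IV, laminin and perlecan genes were 5.80 and 6.18 times those of the follicle cell markers in the wildtype and 6.57 and 6.76 times in the mutant libraries, a ratio of the means of 1.11. The same counts over the sum of the 8 germline markers, of which 2 fell, were 2.43 and 2.97 against 7.47 and 6.67, a ratio of the means of 2.62. The wildtype and mutant ratios did not overlap for either marker set. In dissected ovaries, with late egg chambers removed from the control per the labels, more cells of a type and more footprints per cell cannot be told apart. The part of the cell mixture in these results was not tested.

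Other cells that make basement membrane proteins were also followed by their markers. Of 8 haemocyte markers 3 were tested, 1 was higher (crq at 0.47) and 0 lower, where 20.5% of all genes tested were higher and 20.9% lower. The summed level, almost all of it from crq and srp, was 67.6 and 73.9 CPM in wildtype and 89.5 and 83.2 CPM in mutant libraries. The defining marker Hml had 3.23 and 3.13 CPM against 3.58 and 4.59, He had 0 counts in every library, and NimC1 had 0 counts in both wildtype libraries. Of 13 muscle sheath markers 12 were tested, 2 were higher (sls at 1.32 and bt at 0.79) and 0 lower, and 9 had a positive log2 fold change. The summed level of the 13 was 366.1 and 263.2 against 321.1 and 286.0 CPM. Most of the wildtype sum came from the actin genes Act87E and Act57B, at -0.57 and -0.41 and not called. Of 6 fat body markers Fbp1, Fbp2 and Lsp1gamma had 0 counts in every library. Only 1 was tested, the lipoprotein gene apolpp, which was higher at 1.165 (edgeR adjusted p = 0.00114), where 20.5% of all genes tested were higher. The summed level of the fat body markers, almost all of it from apolpp, was 20.7 and 16.8 against 44.0 and 39.7 CPM. The 10 chorion genes, which late egg chambers express, were all lower in the mutant, and so higher in the control from which late egg chambers were removed per the labels, with a median of -2.18 and a summed level of 7135 and 4836 against 1607 and 1128 CPM. The part of these markers in the basement membrane results was not tested, nor was that of the removal of late egg chambers from the control ovaries.

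Among 4526 genes outside the lists with a mean of at least 10 CPM, the pattern of p23, a co-chaperone gene, was nearest to the mean of vkg and Col4a1 over the 4 libraries, with a distance of 0.020 between centred log2 CPM values. Next were Dip-B, an aminopeptidase gene, at 0.051 and puc, which encodes a JNK phosphatase, at 0.070. The fitted level in the mutant over that in the wildtype was 2.35 for p23, 2.41 for Dip-B and 2.29 for puc. Values near those of vkg and Col4a1 follow from the choice by pattern over the same 4 libraries.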

How the data were processed

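Ribosome footprints of 28 to 34 nt were selected from ovaries, per the labels' protocols, and sequenced as 4 libraries. The authors deposited 1 table per library with counts per transcript, made with the plastid tool counts_in_region from reads of 25 to 100 nt placed at 1 position 12 nt from the 5′ end, per the file headers. The deposited coverage signal is counts per nucleotide, and the deposited RPKM values are counts scaled to transcript length and library total. The submitters' processing notes name build BDGP6 and, without roles, bedtools 2.26.0, SAMtools 0.1.19, TopHat2 2.1.2, Bowtie 1.0.0 and DESeq2.

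Of 34729 transcripts 34567 were tied to a gene of the RefSeq gene table by coordinates (31247 by a shared end with the gene span, 3191 by a shared splice junction, 100 by a shared end with another transcript, 29 by at least 80% reciprocal overlap), and the 162 others (0.132 to 0.224% of a library's reads) were left out. Counts were tested with edgeR 4.0.16 (filterByExpr, TMM scaling, quasi-likelihood F-test on genotype, R 4.3.3), with Benjamini-Hochberg adjustment over 7787 genes, after a test on simulated data. Counts in alternative exon segments were solved exactly from the sums per transcript. Ratios and shares were tested by exact permutation over libraries, where 2 against 2 cannot give a two-sided p under 0.333. Wilson intervals and limits for a count of 0 (3 counts) cover counting error only, since the reads carry no molecular identifiers.

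Genes named are the 10 members, up to 2 per direction from each other list with the smallest p among those with an adjusted p under 0.05 and at least 10 CPM, RpS5b, and the 3 genes nearest to collagen IV in pattern. The members and lists were chosen with earlier results of these data known. Alternatives were the DESeq2 1.42.0 test, other scalings and filters, thinned libraries, the longest transcript, a replicate block and leaving out each library.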

Additional observations from a re-analysis of the deposited data

How the results depend on the processing

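The 6 collagen IV, laminin and perlecan genes kept their direction and their call under all 13 alternatives run, with log2 fold changes from 0.89 to 1.37 and a highest adjusted p of 0.0359 by edgeR or DESeq2. The count of basement membrane genes called higher was 6, or 7 with SPARC (no filter on low counts, without mutant replicate 2, replicate block). Over all genes DESeq2 called 853 higher, and leaving out 1 library gave 1035 to 1393 higher and 1209 to 1518 lower. For the other matrix and adhesion lists together, 27 genes were higher and 3 lower, DESeq2 called 16 higher, and leaving out 1 library gave 20 to 25 higher and 1 to 3 lower. The causes were not tested. Those lists had 8, 16, 18, 5, 10 and 9 genes tested, and by edgeR 20.5% of all 7787 genes tested were higher and 20.9% lower. The 853 genes higher by DESeq2 were also out of 7787 tested. Heparan sulfate genes called higher numbered 0 with DESeq2 or a filter of at least 10 CPM and 1 with thinned libraries, and rotation genes 3 with DESeq2. The log2 fold change of Pxn, not called in any setting, turned to -0.033 with DESeq2, -0.014 with RLE size factors, -0.00041 with coding genes only for scaling, -0.016 with thinned libraries and -0.027 with the replicate block, and lay between -0.22 and 0.19 when 1 library was left out. That of Ppn lay between -0.037 (without wildtype replicate 2) and 0.48. The median log2 fold change of all genes lay between -0.00076 and 0.11 over the settings. With the replicate number as a block 1936 genes were higher and 1891 lower, 7 of them basement membrane genes, and of the other lists 28 were higher and 4 lower. The labels do not say what a replicate number marks. The differences between replicates 1 and 2 correlated with r = 0.265 across genes between the groups, and whether the numbers pair the libraries cannot be settled from 2 pairs. The alternatives based on coding length were not run. Depth limits Ndg and the alternative exons of trol, many of which had under 10 counts in a wildtype library.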
